A study of Mus musculus with 12 samples.

Results

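Cyp2e1, Aldh1a1, Slc7a10 and Car3, a set named for white-like adipocytes, were followed across mouse fat depots, ages and cold in single-nucleus RNA sequencing. They are 4 of the 32285 genes counted in each library, were taken by symbol and carry the identifiers ENSMUSG00000025479, ENSMUSG00000053279, ENSMUSG00000030495 and ENSMUSG00000027559 in that order. They had been picked from these same nuclei, because they tended to share nuclei and to be missing from adipocyte nuclei with Ucp1. Since they were picked this way, the levels, the co-detection and the split by Ucp1 of the 4 members are given below as descriptions, with no test. The name held less well for Car3, Aldh1a1 and Cyp2e1. Car3 in iBAT at 1 and 2 months was not below its level in lPRAT at 2 months, and Aldh1a1 was also high in progenitor nuclei. Cyp2e1 in iWAT at room temperature lay below every mPRAT library, and its interval overlapped that of iBAT at 2 months. The series holds 12 libraries, 1 for each group, from male C57BL/6J mice on Normal Chow. At room temperature (22 °C) there were 3 ages of mPRAT and of iBAT (1, 2 and 6 months), 2 of lPRAT (2 and 6 months) and a single one of iWAT (6 months). Cold exposure, labelled CE, was 4 °C for 3 days and was applied to mPRAT, iBAT and iWAT at 6 months. The depots appear as abbreviations only in the labels and are kept so here. The libraries titled 6 months carry an age of 16 weeks in their other labels, and the younger ones 4 and 8 weeks. The animals behind each library are not counted in the labels, so every interval below covers counting error only, and no difference was tested between groups.

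White adipocytes store fat in 1 large droplet, whereas brown and beige adipocytes burn fuel for heat through the uncoupling protein Ucp1. Cyp2e1 is a cytochrome P450 of the endoplasmic reticulum that oxidises ethanol, acetone and other small molecules. Aldh1a1 is a cytosolic aldehyde dehydrogenase that turns retinaldehyde into retinoic acid. Slc7a10, also called ASC-1, is a plasma membrane carrier of small neutral amino acids and a surface marker of white adipocytes. Car3 is a cytosolic carbonic anhydrase of low hydratase activity that is abundant in fat and muscle.

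Among 119035 barcodes, 96649 nuclei were kept and 64968 fell in the 10 clusters that carried adipocyte markers, with 1935 the fewest (lPRAT, 6 months) and 15336 the most (iBAT, 6 months). The members, Ucp1 and the gene lists used below had no part in making the clusters. All 9 adipocyte markers, such as the adiponectin gene Adipoq and the lipid droplet gene Plin1, had counts in these nuclei of every library. Their median depth ran from 889 UMIs (unique molecular identifiers, each standing for 1 captured RNA molecule) in lPRAT at 2 months to 6646 in iWAT at room temperature. In cold mPRAT 66.0% of the barcodes exceeded the mitochondrial limit of 10% and were removed, a share of at most 22.1% elsewhere. Kidney tubule markers summed to 83.4 and 70.9 CPM in adipocyte-like nuclei of mPRAT at 1 and 2 months and to 7.58 CPM or less in the other 10 libraries. Mesothelial markers summed to 71.4 CPM in lPRAT at 2 months and 53.0 CPM in cold mPRAT, against 1.68 to 27.6 CPM elsewhere. Epithelial markers summed to 188 CPM in cold mPRAT against 23.9, 62.3 and 4.14 CPM in mPRAT at 1, 2 and 6 months, skeletal muscle markers to 118 CPM in iBAT at 2 months (27.9 or less elsewhere), and macrophage markers to 134 CPM in lPRAT at 2 months (30.7 or less elsewhere). Markers of adipose stem and progenitor cells, which include Ebf2, a gene that brown adipocytes also express, summed to 466 to 2866 CPM, with all 10 detected in every library, and to 21.0 to 422 CPM without Ebf2. B cell markers summed to 2197 to 7620 CPM, highest in iWAT at room temperature and lPRAT at 6 months, with 2409 and 4734 CPM in mPRAT at 1 and 6 months. Nearly all of that was Ebf1, which adipocytes also express, and the other 5 markers summed to 0.929 to 40.6 CPM, highest in mPRAT at 6 months. The part of these markers in the results was not tested. Any pair of libraries shared 1 to 59 barcodes, at most 0.685% of the smaller library.

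The promoters are shown so that the members can be compared for shared motifs. All 4 genes lie on the plus strand of GRCm38 by GENCODE M21. Cyp2e1 spans chr7:140763739-140774987 with 9 exons, Aldh1a1 chr19:20492715-20643465 with 16, Slc7a10 chr7:35186385-35201114 with 11 and Car3 chr3:14863512-14872523 with 7. RefSeq promoter sequence (GRCm38.p6) was matched for 3 of the 4 members, and Car3 is named only. The 250 bases before the RefSeq start are printed 5′ to 3′. They come from chr7:140763569-140763818 for Cyp2e1, chr19:20601718-20601967 for Aldh1a1 and chr7:35186135-35186384 for Slc7a10. Aldh1a1 has 2 RefSeq starts, and the one nearer the start of the main GENCODE transcript was used. Capitals mark exact matches, on either strand, to the TATA box, spelled TATAAA, the CCAAT box, spelled CCAAT, and the GC box, spelled GGGCGG. A match on the minus strand is printed as its reverse complement.
Cyp2e1: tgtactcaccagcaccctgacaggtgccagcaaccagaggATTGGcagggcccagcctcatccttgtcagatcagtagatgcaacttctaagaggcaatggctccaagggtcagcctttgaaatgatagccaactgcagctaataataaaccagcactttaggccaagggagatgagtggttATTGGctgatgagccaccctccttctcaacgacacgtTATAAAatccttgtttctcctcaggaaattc
Aldh1a1: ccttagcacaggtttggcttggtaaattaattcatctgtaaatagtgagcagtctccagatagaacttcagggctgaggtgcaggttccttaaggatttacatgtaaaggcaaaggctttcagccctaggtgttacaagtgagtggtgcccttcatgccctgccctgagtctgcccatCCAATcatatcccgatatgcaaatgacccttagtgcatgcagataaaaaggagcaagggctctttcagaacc
Slc7a10: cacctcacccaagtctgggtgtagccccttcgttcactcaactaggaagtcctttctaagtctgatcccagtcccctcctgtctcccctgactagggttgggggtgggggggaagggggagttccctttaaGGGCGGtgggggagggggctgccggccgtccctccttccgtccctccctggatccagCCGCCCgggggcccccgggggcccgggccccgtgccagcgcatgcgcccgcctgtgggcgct
The Cyp2e1 window held TATAAA at 31 to 26 bases before the start and CCAAT on the minus strand at 210 to 206 and 68 to 64 bases before it. Aldh1a1 held CCAAT at 72 to 68 bases and no TATAAA. Slc7a10 held GGGCGG at 119 to 114 bases and, on the minus strand, at 62 to 57 bases, with neither of the other motifs. Of 32851 promoter windows of the same length, 12.4% held TATAAA, 33.8% CCAAT and 32.7% GGGCGG. Neither the nuclear receptor half-site AGGTCA (14.0% of windows) nor the C/EBP core TTGCNNAA (9.56%) was found in the 3 windows. The E-box CANNTG, left in lower case and found in 66.2% of windows, occurred 2 times for Cyp2e1, 3 times for Aldh1a1 and 0 times for Slc7a10. The GC content was 48.8%, 46.4% and 69.6%, against a median window of 52.4%. So the Slc7a10 window was the GC-rich one, above 90.2% of all windows, and no listed motif was common to the 3.

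Levels are counts summed over adipocyte-like nuclei of a library per 1000000 UMIs (CPM), and they are compared between libraries, not between genes. Cyp2e1 was highest in lPRAT, at 1465 CPM (95% interval 1446 to 1485) at 6 months and 1169 at 2 months. It stood at 600.4, 948 and 690.1 CPM in mPRAT at 1, 2 and 6 months and at 478 in cold mPRAT. In iWAT it was 239 CPM at room temperature and 692 in cold. iBAT gave 88.1, 229, 11.9 and 13.1 CPM at 1, 2 and 6 months and in cold. Neighbours whose intervals overlapped were cold iWAT and mPRAT at 6 months, iWAT at room temperature and iBAT at 2 months, and iBAT at 6 months with and without cold.

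Aldh1a1 took another order, with iWAT at room temperature on top at 721 CPM (711.8 to 729.8). lPRAT at 6 months (528 CPM) and cold iWAT (520 CPM) followed with overlapping intervals, then lPRAT at 2 months with 294. In mPRAT it was 65.9, 53.7 and 165 CPM at 1, 2 and 6 months and 104 in cold, and in iBAT 39.5, 33.5, 8.92 and 3.46. Slc7a10 was 1086 and 1094 CPM in lPRAT, 477 and 587 in iWAT without and with cold, and 181, 204, 237 and 331 in mPRAT from 1 month to cold. Its iBAT values were 57.1, 132, 16.7 and 26.0 CPM. For Aldh1a1 and Slc7a10 every iBAT library lay below every library of the other depots, with no overlap of intervals across that line. For Cyp2e1 the same order held, but the intervals of iBAT at 2 months and iWAT at room temperature overlapped.

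Car3 was 4801 CPM in lPRAT at 6 months but 1311 at 2 months, and 3207 and 3722 in iWAT without and with cold. mPRAT held 1367, 2787 and 3779 CPM at 1, 2 and 6 months and 1978 in cold. iBAT held 1336, 1545 and 846 CPM at the 3 ages and 78.1 in cold, the lowest Car3 level of the 12 libraries. mPRAT and iBAT at 1 month and lPRAT at 2 months could not be ordered within their intervals.

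**Figure D1:**
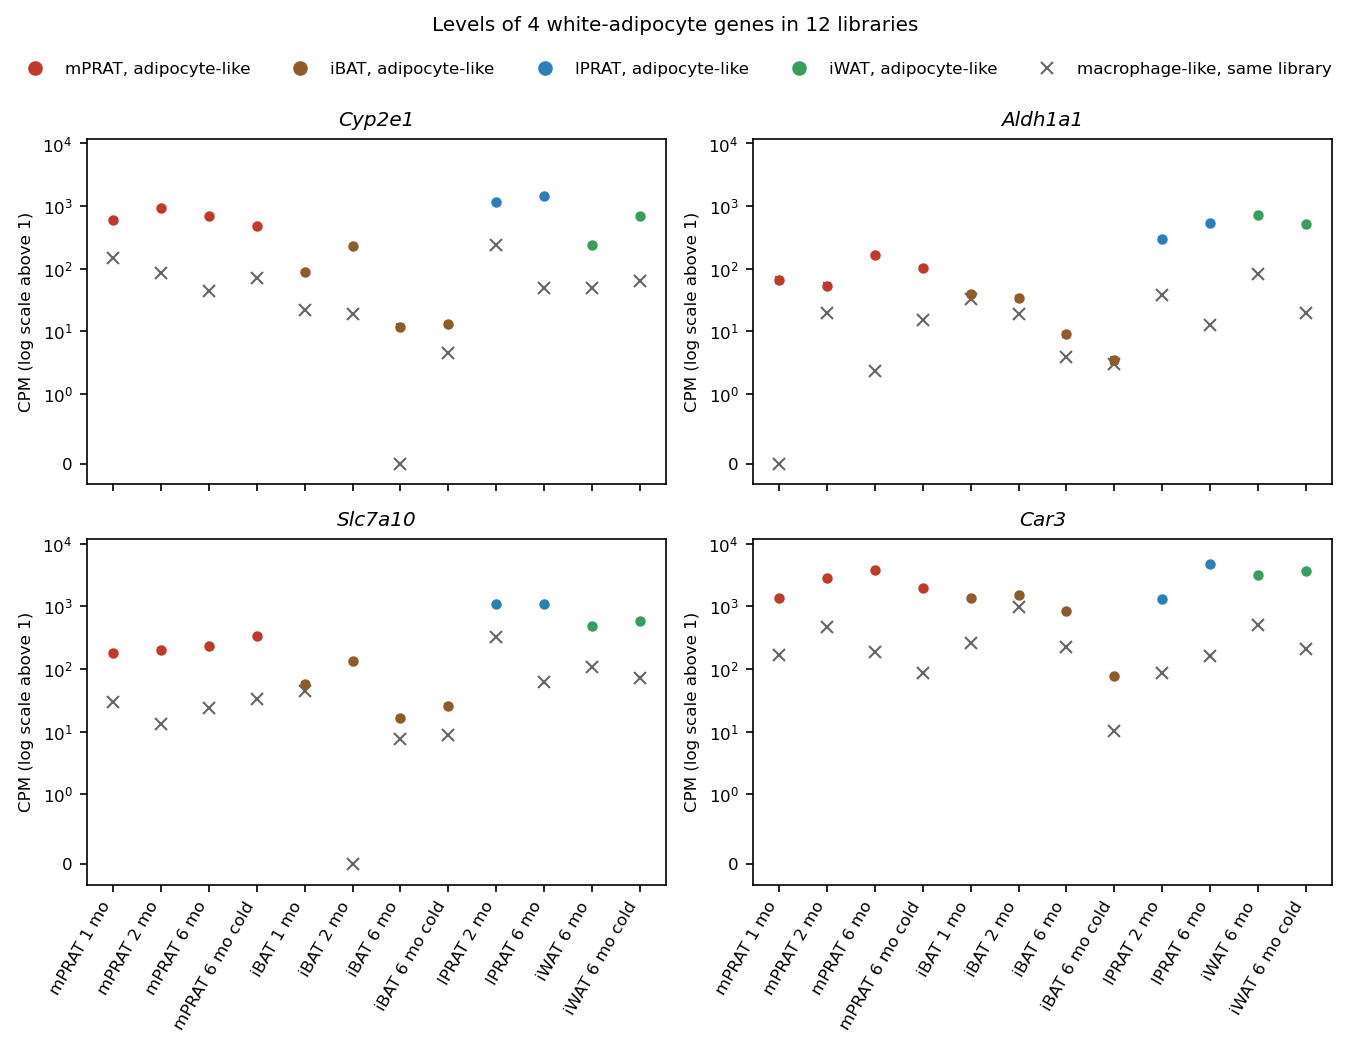
Level of each gene (CPM, log scale above 1) in adipocyte-like nuclei of the 12 libraries, coloured by depot, with 95% Poisson intervals that are mostly smaller than the points; crosses are macrophage-like nuclei of the same library. lPRAT lies highest for Cyp2e1 and Slc7a10, iWAT at room temperature for Aldh1a1, and cold iBAT at 78.1 CPM lowest for Car3.

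Macrophage-like nuclei, which should lack the 4 genes, give the level of stray RNA in each library. Cyp2e1 reached 241 CPM there in lPRAT at 2 months and 147 CPM in mPRAT at 1 month, and at most 84.5 CPM elsewhere. Slc7a10 reached 323 CPM in lPRAT at 2 months. There 21.7% of 46 macrophage-like nuclei held Slc7a10 and 19.6% Cyp2e1 at 1000 UMIs, against 60.2% and 60.7% of adipocyte-like nuclei, with median depths of 719 and 889 UMIs before thinning. Car3 reached 960 CPM in macrophage-like nuclei of iBAT at 2 months, next to 1545 CPM in the adipocyte-like nuclei, and that library had only 39 macrophage-like nuclei. In iBAT at 1 month, Aldh1a1 was 39.5 CPM in adipocyte-like against 32.9 in macrophage-like nuclei and Slc7a10 57.1 against 43.9. These 2 levels over all adipocyte-like nuclei were thus close to the macrophage-like ones. The latter rest on 82 nuclei, of which 1.22% held Aldh1a1 and 2.44% Slc7a10. Clusters 4 and 5, with 1.66% of the adipocyte-like nuclei, held 76.7% of the Aldh1a1 and 68.3% of the Slc7a10 counts. Cold iBAT gave 3.46 against 2.97 CPM for Aldh1a1. Aldh1a1 was the member with clear levels outside adipocytes. It ran from 440 to 815 CPM in nuclei with markers of adipose stem and progenitor cells (median 601). That was above the adipocyte-like level of the same library except in iWAT at room temperature, where it was 652 against 721 CPM. Aldh1a1 also ran from 550 to 1667.5 CPM in mesothelial-like nuclei (6 libraries) and 84.2 to 1000 CPM in skeletal muscle-like nuclei (3 libraries). It was 263 to 487 CPM in adrenal cortex-like (2 libraries) and 124 to 349 CPM in Schwann-like nuclei (4 libraries). The part of these sources in the adipocyte-like levels was not tested.

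Ucp1-positive nuclei were those with a Ucp1 UMI after every nucleus was thinned to 1000 UMIs, which left out between 3 nuclei (mPRAT at 6 months) and 2926 (iBAT at 1 month) that were shallower. In mPRAT at 6 months, Cyp2e1 was 773 CPM in 2852 Ucp1-zero nuclei and 108 CPM in 486 Ucp1-positive nuclei, a ratio of 0.139 (0.124 to 0.155). Aldh1a1 went from 187 to 8.94 CPM, a ratio of 0.0477, and Slc7a10 from 267 to 24.8 CPM, a ratio of 0.0930. Car3 had the mildest ratio there, 0.317, from 4132 to 1309.7 CPM. All 4 members passed the 2-fold mark downward, as did 13.6% of all genes with 20 counts or more. In cold mPRAT, with 862 positive and 1201 zero nuclei, the ratios were 0.0748 for Cyp2e1, 0.0366 for Aldh1a1, 0.0699 for Slc7a10 and 0.0315 for Car3. There 10.0% of genes passed the same mark. Median depth differed little between the 2 sets, at 4444.5 and 4577 UMIs in cold mPRAT.

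The same 4 of 4 members were lower by 2-fold or more in mPRAT at 1 month, beside 11.8% of genes, and at 2 months, beside 11%. In iBAT, Cyp2e1, Aldh1a1 and Slc7a10 passed the mark at each age and in cold, with ratios from 0.0831 to 0.251. Car3 did not pass it in iBAT at 1 month (0.832, with 3.56% of genes past the mark) or 6 months (0.706, with 3.96%), but did at 2 months (0.440, with 6.46%) and in cold (0.0879, with 2.32%). In cold iBAT 2502 nuclei were Ucp1-zero after thinning and 196 before it. Most of the zero set there thus held Ucp1 at full depth, and its ratios are no contrast with nuclei lacking Ucp1. At 1, 2 and 6 months 3968, 4617 and 9382 iBAT nuclei were Ucp1-zero, but clusters 4 and 5 held only 138, 446 and 250. Most of these zero sets thus lay in clusters with more Ucp1 than cluster 4. At 6 months Car3 was 4281 CPM in cluster 4, with 34.7 CPM of Ucp1, and 750 CPM in cluster 11, with 435. At 1 month Car3 was 3889 CPM in cluster 4, with 11.3, and 1213 CPM in cluster 3, with 371. The room temperature iBAT ratios are thus no contrast with nuclei lacking Ucp1 either. The 75 Ucp1-positive nuclei of cold iWAT had 128 against 703 CPM of Cyp2e1, 24.1 against 529 of Aldh1a1, 131 against 595 of Slc7a10 and 631 against 3780 of Car3. All 4 passed, beside 27.6% of genes, and the positive nuclei there were shallower, at 3117 against 4842 UMIs. iWAT at room temperature had 4 Ucp1-positive nuclei and lPRAT 0, so no split was made. The 0 of 881 and 0 of 1897 lPRAT nuclei at 2 and 6 months allow shares of up to 0.341% and 0.158% (3 counts of the total) of nuclei with a Ucp1 UMI at this depth, which is no limit on nuclei expressing it.

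Counted as shares of nuclei with a UMI at 1000 UMIs, Cyp2e1 was found in 39.1% of Ucp1-zero and 9.47% of Ucp1-positive nuclei of mPRAT at 6 months, a difference of -29.6 points (-32.7 to -26.2). Without thinning the shares were 75.8% and 33.5%. In cold mPRAT Cyp2e1 was in 39.0% and 4.29% (-34.7 points, -37.8 to -31.5), or 78.1% and 16.0% unthinned. Slc7a10 was in 32.9% and 3.13% of cold mPRAT nuclei, Aldh1a1 in 12.6% and 0.232%, and Car3 in 58.0% and 4.87%. Macrophage-like nuclei of cold mPRAT, with a median of 1455 UMIs, had Cyp2e1 in 2.13%, Slc7a10 in 1.42%, Aldh1a1 in 1.42% and Car3 in 5.67%. The Aldh1a1 and Car3 shares of Ucp1-positive nuclei were thus at or below that background, and are not read as expression. Slc7a10 in Ucp1-positive nuclei of mPRAT at 6 months (1.85%) also lay under its macrophage-like share (3.99%), in nuclei with a median of 2192 UMIs. Without thinning, Car3 in iBAT at 1 month was slightly more common in Ucp1-positive than in Ucp1-zero nuclei, at 67.8% and 65.5%.

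In cold mPRAT the largest step lay between 0 and 1 Ucp1 UMI. Cyp2e1 was found in 39.0%, 6.95%, 1.92% and 1.62% of nuclei with 0, 1, 2 and 3 or more Ucp1 UMIs, and Car3 in 58.0%, 6.00%, 3.85% and 3.78%. The Cyp2e1 shares at 2 or more Ucp1 UMIs were below the macrophage-like 2.13%, and those of Slc7a10 had no steady order, at 32.9%, 3.12%, 4.23% and 1.62%. At room temperature in mPRAT at 6 months the step lay between 0 and 1 UMI, with Cyp2e1 at 39.1%, 9.60%, 8.20% and 11.3%. Car3 stayed common there, at 83.8%, 52.3%, 51.6% and 43.5% of nuclei. At least 1 of the 4 members was detected in 55.6% of Ucp1-positive nuclei of mPRAT at 6 months and in 10.1% of those in cold. At least 2 were detected in 6.79% and 1.97%, against 46.4% and 47.8% of the Ucp1-zero nuclei.

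**Figure D2:**
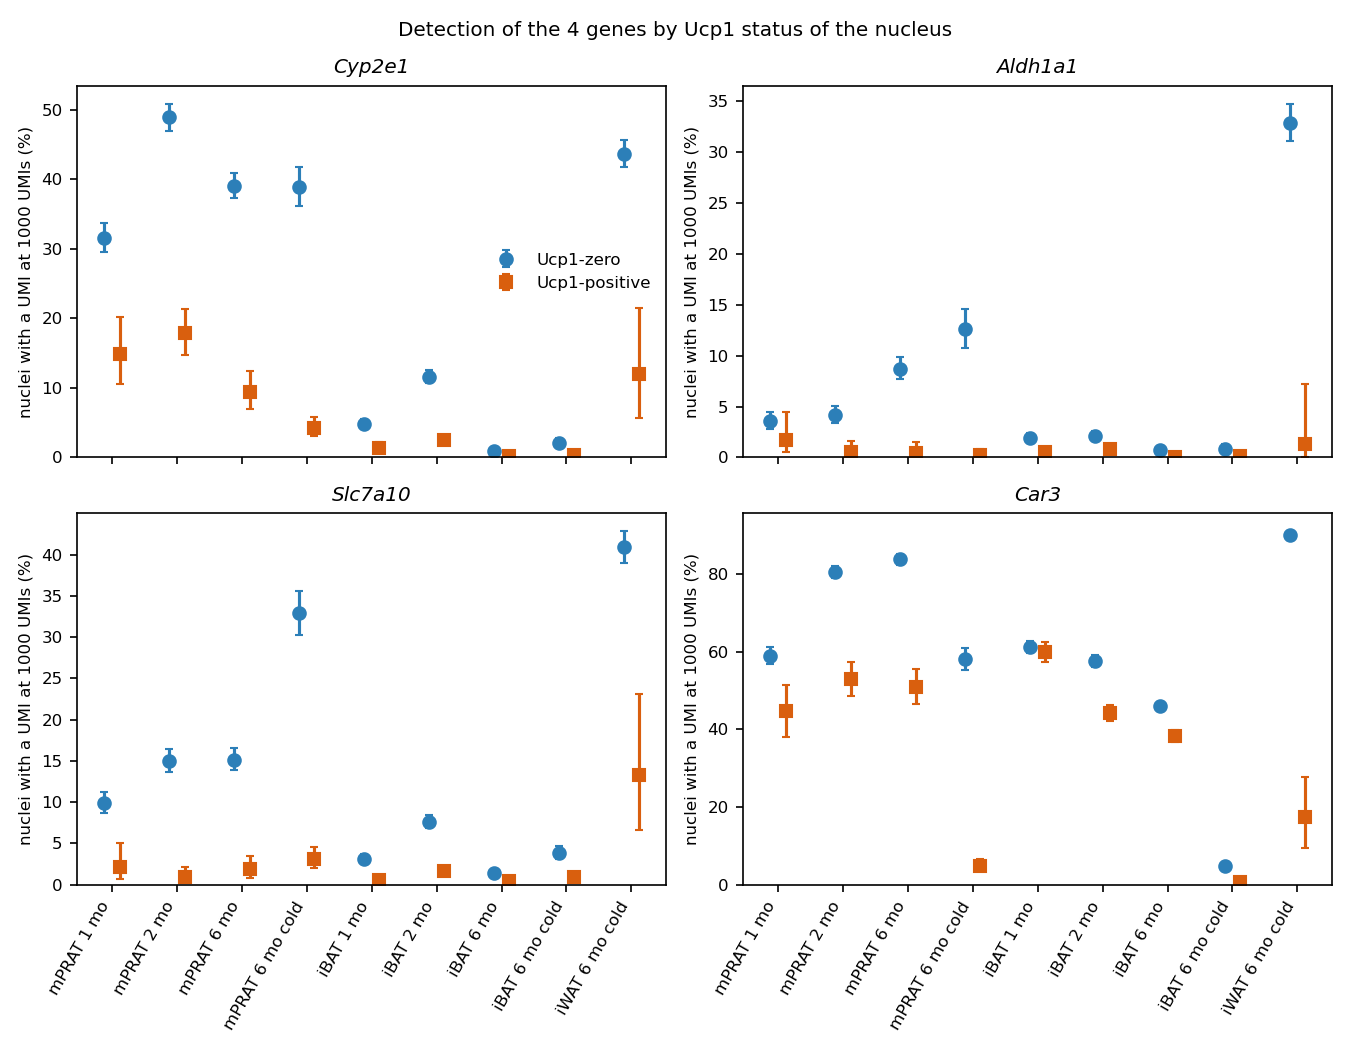
Detection of each gene, as the percentage of adipocyte-like nuclei holding a UMI of it after thinning to 1000 UMIs , in Ucp1-zero (circles) and Ucp1-positive (squares) nuclei of the 9 libraries with 50 or more of each, with 95% Clopper-Pearson intervals. Squares lie below circles for every gene and library; for Car3 in iBAT at 1 month (60.01% and 61.3%) and Aldh1a1 in mPRAT at 1 month (1.754% and 3.55%) the interval of the difference includes 0.

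Co-detection was measured as the number of nuclei with both genes over the number that the product of their shares gives. Its interval is the Clopper-Pearson interval of the joint share, with the number from the single shares held fixed. Such an interval can pass the highest possible ratio, and one that holds 1 is not read as no association. In mPRAT at 6 months Cyp2e1 and Aldh1a1 shared 148 nuclei where their shares give 87.3, a ratio of 1.70 (1.44 to 1.98). The highest ratio those shares allow is 2.88. Aldh1a1 was thus found in 12.7% of nuclei with Cyp2e1 and in 4.73% of those without. Cyp2e1 and Slc7a10 gave 1.63, and Aldh1a1 and Slc7a10 gave 2.38, with a ceiling of 7.57. Pairs with Car3 gave 1.18 to 1.21, near their ceiling of 1.27, since 79.0% of all these nuclei held Car3.

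All 6 pairs stayed above 1 in the Ucp1-zero nuclei of mPRAT at 6 months, from 1.13 to 2.09. In cold mPRAT the 6 ratios ran from 2.39 to 2.80 over all nuclei and from 1.55 to 1.77 among Ucp1-zero nuclei. Ucp1-zero at 1000 UMIs includes nuclei that held Ucp1 at full depth: 1201 nuclei of cold mPRAT were Ucp1-zero after thinning and 839 before it. At 6 months at room temperature these numbers were 2852 and 2316, and the part of such nuclei in the ratios was not tested. mPRAT had the intervals of all 6 pairs above 1 at 1 month and of 5 at 2 months. Aldh1a1 with Car3 was 1.12 (0.906 to 1.37) at 2 months, with an upper limit past what its shares allow.

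The iBAT ratios ran from 1.28 to 16.6 at 1 month, 1.59 to 8.999 at 2 months, 1.73 to 32.1 at 6 months and 22.6 to 45.7 in cold, and the intervals of all 6 pairs lay above 1 each time. At room temperature the Car3 pairs gave 1.28 to 1.81, with ceilings of 1.64, 1.89 and 2.29 at 1, 2 and 6 months. Rare genes allow high ratios: Cyp2e1 and Aldh1a1 at 6 months gave 28.4 with a ceiling of 132.7, and Cyp2e1 and Car3 in cold 45.7 with a ceiling of 57.5. In cold iBAT 58 nuclei held both Cyp2e1 and Car3 where the shares give 1.27. Car3 was found in 79.5% of cold iBAT nuclei with Cyp2e1 and in 1.14% of the others.

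The white depots differed from this. In lPRAT none of the 6 intervals left out 1 at either age, and the ratios were 0.952 to 1.06 at 2 months and 0.958 to 1.01 at 6 months. Pairs without Car3 could have reached up to 1.66 and 1.52 there, so the ceiling did not fix them at 1. The part of stray RNA in these ratios at 2 months was not tested. iWAT at room temperature had Cyp2e1 and Aldh1a1 in the same nucleus less often than their shares give, in 228 nuclei against 282.5, a ratio of 0.807 (0.708 to 0.915). Aldh1a1 with Car3 was 0.943 there and Aldh1a1 with Slc7a10 was 1.10, while the other 3 pairs included 1. In cold iWAT the pair Cyp2e1 and Aldh1a1 stood at 1.16. The intervals of 5 of 6 pairs lay above 1 there, but only 1 did among the Ucp1-zero nuclei.

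**Figure D3:**
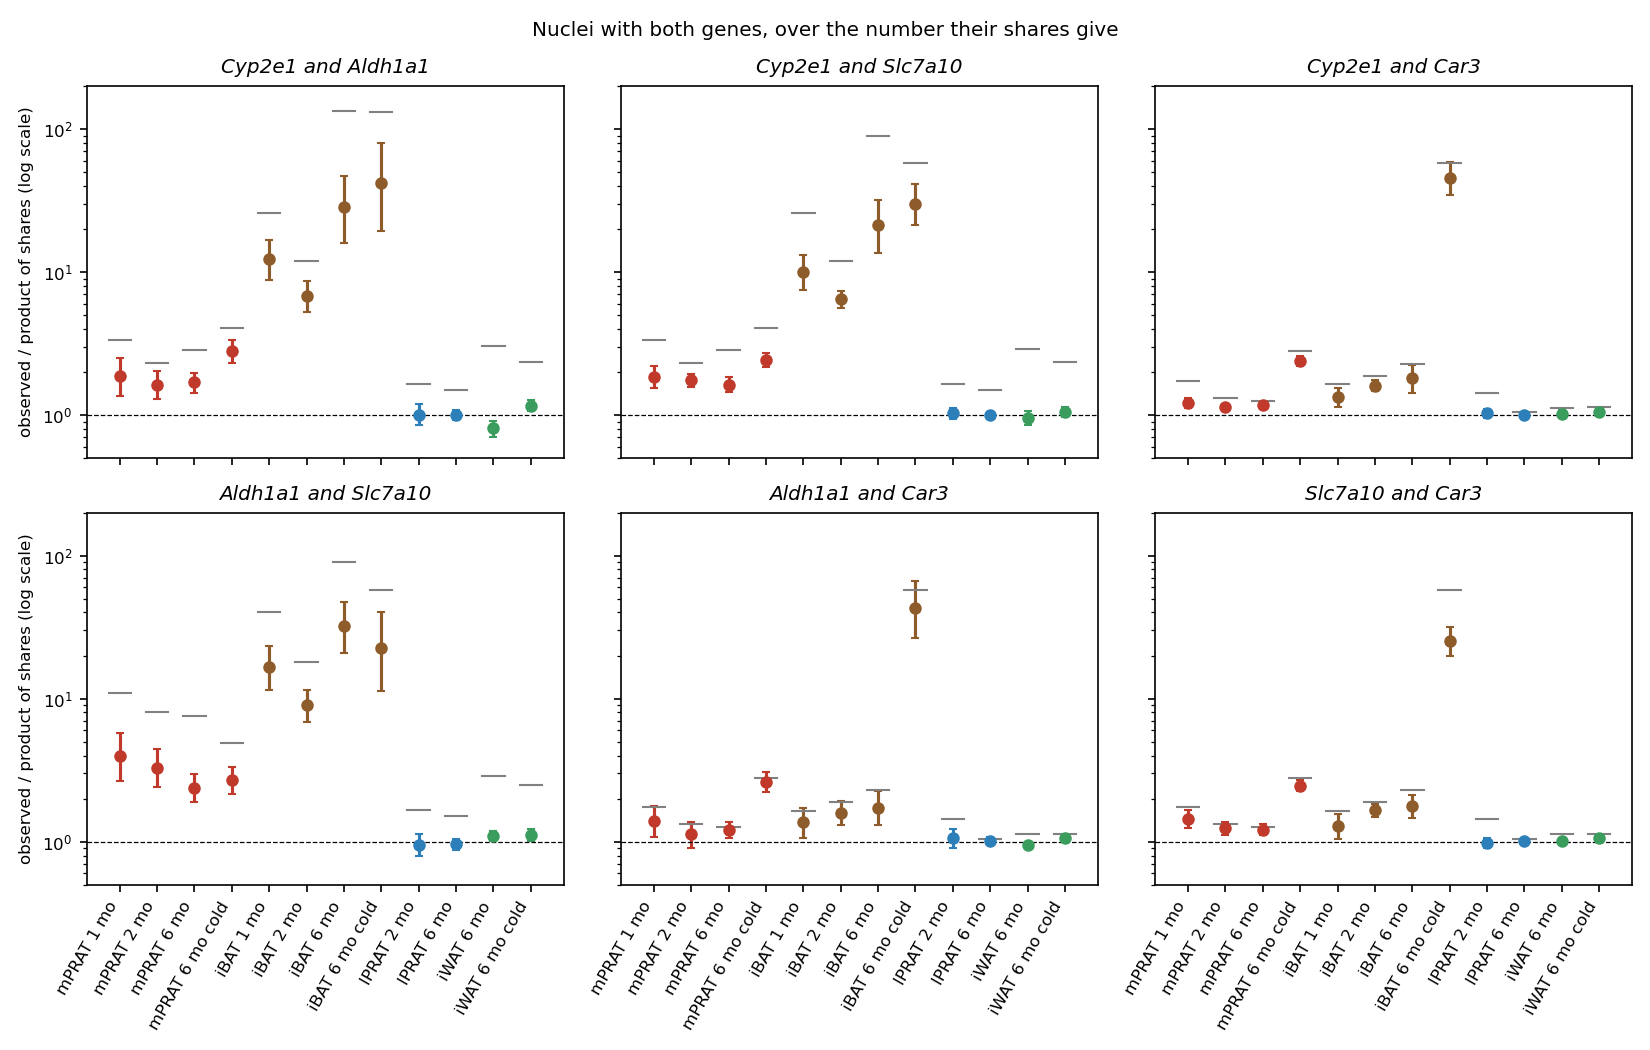
Nuclei with both genes of a pair over the number given by the product of their shares (log scale, 95% intervals, dashed line at 1), for 6 pairs and 12 libraries coloured by depot; grey bars mark the highest ratio the shares allow. mPRAT (red) and iBAT (brown) lie above 1, with 45.7 the highest for cold iBAT, while lPRAT (blue) and iWAT (green) lie between 0.807 and 1.16.

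Nuclei with at least 2 of Cyp2e1, Aldh1a1 and Slc7a10 were counted in each library. They made up 6.43%, 11.4% and 11.2% of mPRAT adipocyte-like nuclei at 1, 2 and 6 months and 15.7% in cold. In iBAT they were 1.63%, 3.54% and 0.373% at the 3 ages and 0.4997% in cold, and in lPRAT 48.0% and 59.9%. iWAT held 21.0% at room temperature and 34.0% in cold. These shares also follow how common each gene was. Over the number given by the single shares, the ratio was 1.01 in lPRAT at both ages and 1.01 and 1.04 in iWAT. It was 1.66, 1.63, 1.50 and 2.06 in mPRAT and 8.55, 5.20, 20.7 and 24.5 in iBAT, from 1 month to cold. Ucp1 was found in 2 of 375 such nuclei of mPRAT at 6 months (0.533%) and in 16.3% of the rest, and in 5 of 323 of cold mPRAT (1.55%) and 49.3% of the rest. In cold iBAT 8 of 48 (16.7%) held Ucp1, against 74.2% of the rest, and 93.8% of the 48 held Car3 against 1.28% of the rest. These nuclei were deeper than the rest in iBAT at 6 months, at 3294.5 against 2381 UMIs, and in mPRAT at 6 months, at 7930 against 6036, and the part of depth was not tested.

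Clusters 4 and 5, made without the members, were compared by their share of nuclei and of member counts, the second of which also follows depth. They were 49.1% of mPRAT adipocyte-like nuclei at 6 months, with 90.3% of the Cyp2e1, 98.7% of the Aldh1a1, 95.3% of the Slc7a10 and 79.9% of the Car3 counts. At 1 and 2 months they were 10.9% and 18.0% of mPRAT nuclei and held less of the counts. Their shares were 41.1% and 52.6% for Cyp2e1, 74.9% and 81.0% for Aldh1a1, 67.7% and 78.9% for Slc7a10, and 35.4% and 42.6% for Car3. In cold mPRAT they were 34.2% of nuclei, with 91.3% of the Cyp2e1 and 96.5% of the Car3 counts. Only 1.63% of iBAT nuclei at 6 months lay in them, with 76.3% of the Cyp2e1 and 91.5% of the Aldh1a1 counts, but just 11.8% of those of Car3. At 2 months they were 4.93% of iBAT nuclei with 34.7% of the Car3 counts. In cold iBAT they were 0.942% of nuclei with 70.5% of the Car3 but 38.4% of the Slc7a10 counts. In lPRAT at 2 months most nuclei (77.5%) lay in another cluster, number 1, of which 85.8% came from that library. Per UMI, Slc7a10 was higher there than in clusters 4 and 5, at 1248 against 873 and 796 CPM.

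The clusters given here are examples. In mPRAT at 6 months cluster 4 had 1078 CPM of Cyp2e1 and 6.78 of Ucp1, cluster 0 had 311 and 332, and cluster 11 had 103 and 469. The order did not hold for each pair of clusters, since cluster 2 there had more Ucp1 than cluster 11, at 613 CPM, with 115 CPM of Cyp2e1. Aldh1a1 was 107 CPM in cluster 4, 573 in cluster 5, 4.74 in cluster 0 and 4.38 in cluster 11. In cold mPRAT cluster 4 had 1125 CPM of Cyp2e1, 4976 of Car3 and 31.8 of Ucp1, and cluster 8, with 55.2% of the nuclei, had 53.0, 60.2 and 1166. In cold iWAT cluster 0 had 345 CPM of Cyp2e1 and 388 of Ucp1 in 5.99% of nuclei. In mPRAT at 2 months cluster 0, with 54.5% of the nuclei, had 788 CPM of Cyp2e1 and 2619 of Car3 beside 283 of Ucp1. Cluster 8 came to 96.7% from cold mPRAT and cluster 26 to 96.5% from cold iBAT.

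**Figure D4:**
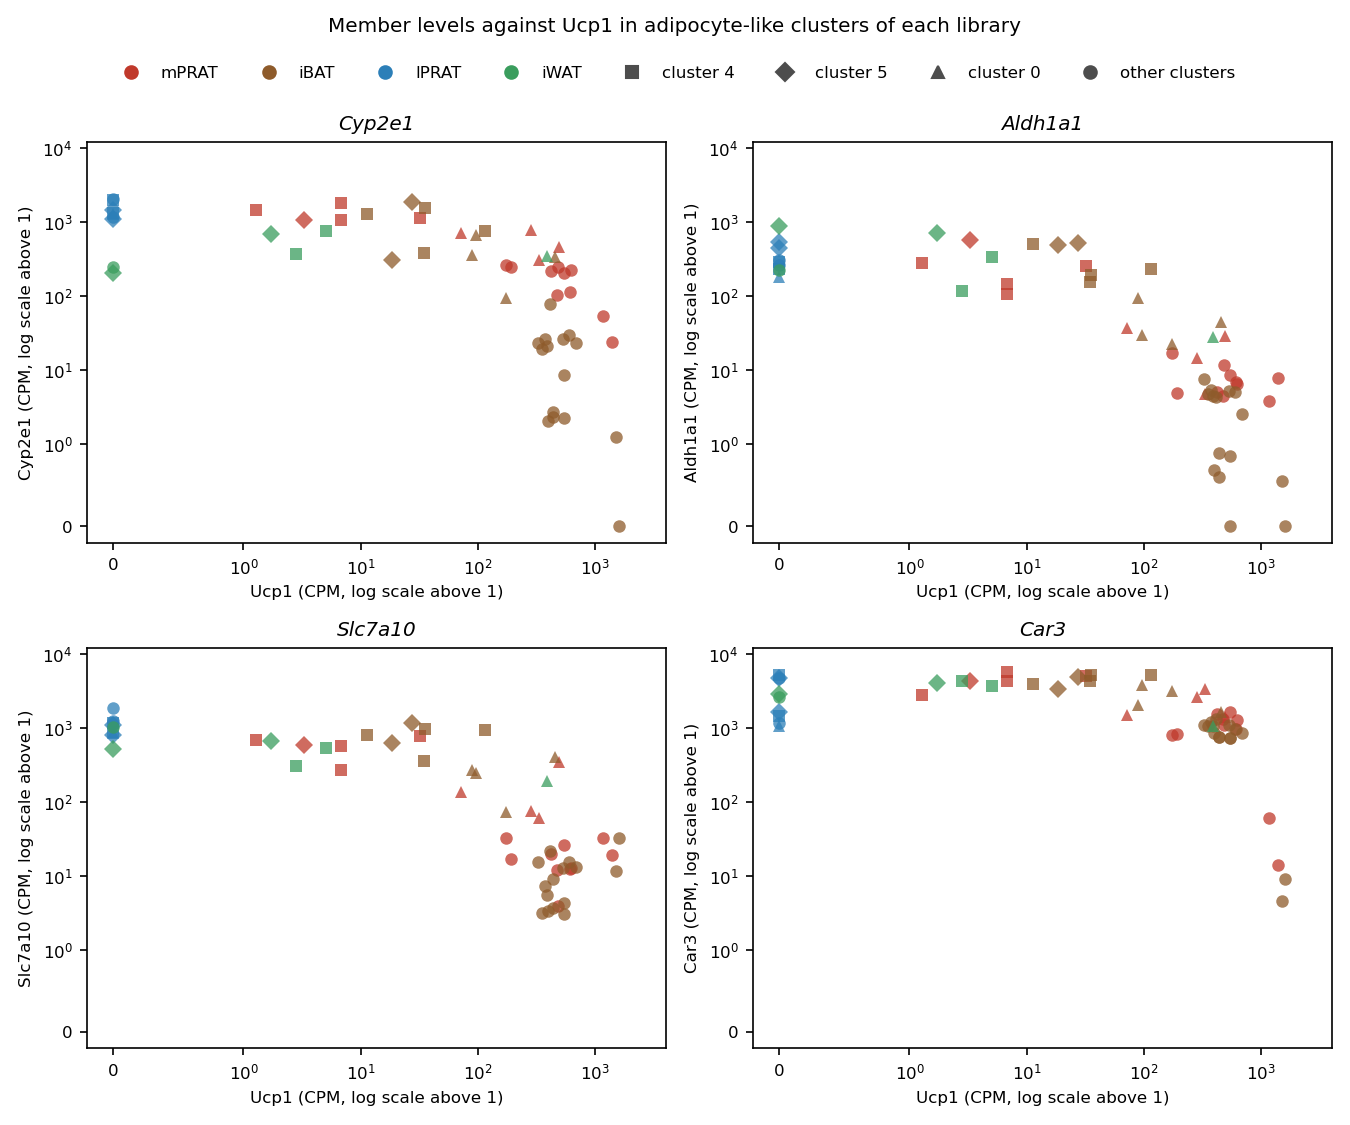
Level of each gene against Ucp1 (both CPM, log scale above 1) in every adipocyte-like cluster with 50 or more nuclei in a library, coloured by depot, with clusters 4, 5 and 0 as squares, diamonds and triangles. In mPRAT at 6 months Car3 is 5713 CPM in cluster 4 and 1334 CPM in cluster 11; it is 60.2 CPM in cluster 8 of cold mPRAT, where Ucp1 is 1166 CPM.

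The ages compared differently in mPRAT and iBAT when 6 months was set against 1 or 2 months. From 1 to 2 months each member lay on the same side of 1 in both depots, before any subtraction. The mPRAT ratios for that step were 1.58 for Cyp2e1, 0.816 for Aldh1a1, 1.13 for Slc7a10 and 2.04 for Car3. From 1 to 6 months in mPRAT, Aldh1a1 was higher 2.51-fold (2.24 to 2.81) and Car3 2.77-fold (2.70 to 2.83), while Cyp2e1 (1.15) and Slc7a10 (1.31) stayed under 2-fold. So 2 of 4 members passed the mark upward, beside 8.76% of genes. From 2 to 6 months only Aldh1a1 passed it, at 3.07-fold, beside 11.2% of genes, and Cyp2e1 had a ratio of 0.728. With the macrophage-like level taken off, the Aldh1a1 ratio from 2 to 6 months was 4.75.

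In iBAT, between 1 and 2 months, Cyp2e1 was 2.60-fold and Slc7a10 2.31-fold higher, 2 of 4 members beside 2.74% of genes, with Car3 at 1.16 and Aldh1a1 at 0.849 (0.751 to 0.960). Once the macrophage-like level was taken off, the Slc7a10 ratio was 9.99, and both others changed sides of 1, Car3 to 0.546 and Aldh1a1 to 2.24. These values have no interval and rest on 82 and 39 macrophage-like nuclei at 1 and 2 months. Marker-defined adipocytes gave 1.46 for Aldh1a1. Most iBAT nuclei lay in different clusters by age, with 83.2%, 66.4% and 5.97% in cluster 3 and 2.88%, 6.24% and 61.4% in cluster 11 at 1, 2 and 6 months. Between 2 and 6 months Cyp2e1 had a ratio of 0.0519 (0.0470 to 0.0571), Slc7a10 0.126 and Aldh1a1 0.266, 3 of 4 members beside 7.5% of genes. Taking off the macrophage-like level gave 0.0677 for Slc7a10 and turned Car3 from 0.548 to 1.06, and marker-defined adipocytes gave 0.168 for Aldh1a1. From 1 to 6 months the ratios were 0.135, 0.292 and 0.226, again 3 of 4 members, beside 11.8% of genes. Without the macrophage-like level the last 2 became 0.676 and 0.768. In lPRAT from 2 to 6 months Car3 was 3.66-fold higher, 1 of 4 members beside 15.9% of genes. Aldh1a1 was at 1.80, Cyp2e1 at 1.25 and Slc7a10 at 1.01 (0.967 to 1.05). The macrophage-like level in lPRAT at 2 and 6 months was 323 and 62.9 CPM for Slc7a10 and 241 and 49.0 CPM for Cyp2e1. It was not taken off in these ratios, so the interval around 1 does not cover stray RNA. Aldh1a1 passed the mark with TMM scaling and with the macrophage-like level taken off. Most lPRAT nuclei lay in different clusters, with 77.5% in cluster 1 at 2 months and 88.1% in cluster 5 at 6 months.

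Inside single clusters the ages compared differently. In cluster 4 of mPRAT, 6 over 1 months gave 0.384 for Aldh1a1 (280 to 107 CPM), 0.404 for Slc7a10 and 0.748 for Cyp2e1, each below 1, while Car3 was 2.06. Clusters 4 and 5 together held 10.9% of mPRAT adipocyte-like nuclei at 1 month, 18.0% at 2 and 49.1% at 6 months. The whole-depot level of Aldh1a1 was thus higher at 6 months while its level inside cluster 4 was lower. Cluster 5 alone held 0.600% of mPRAT nuclei at 1 month and 12.3% at 6 months. At 6 months it had 573 CPM and 2983 counts of Aldh1a1, against 950 counts in cluster 4, and 3028 counts of Slc7a10 against 2423. The cluster 4 ratios of these 2 genes therefore leave out most of their counts at 6 months. They are not read as a fall over both clusters. In cluster 4 of iBAT, Cyp2e1 was 1269, 1561 and 381 CPM at 1, 2 and 6 months, and Slc7a10 was 811, 975 and 361. The 6 over 2 months ratios there were 0.244 and 0.371, with 0.816 for Aldh1a1 (0.630 to 1.05). Cluster 5 of iBAT held more counts than cluster 4 of Aldh1a1 (240 against 85) and Slc7a10 (305 against 198) at 6 months. The share of iBAT nuclei in clusters 4 and 5 was 1.66%, 4.93% and 1.63% at the 3 ages.

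The members compared differently in cold from depot to depot. In mPRAT, Cyp2e1 was 690.1 CPM at room temperature and 478 in cold, a ratio of 0.692 (0.671 to 0.715). Aldh1a1 had 0.633, Car3 0.523 and Slc7a10 1.40 (1.34 to 1.46). The stem and progenitor markers in these nuclei went from 1593 to 760 CPM (174 to 81.0 CPM without Ebf2), and their part in the Aldh1a1 ratio was not tested. Of the cold mPRAT barcodes 66.0% had been removed for mitochondrial UMIs, and with no such limit the Cyp2e1 ratio was 0.657. None of the 4 passed the 2-fold mark, beside 10.7% of genes upward and 13.1% downward. With TMM scaling, a shift of -0.0853 on the log2 scale, Car3 passed it downward. In iBAT, Car3 had a ratio of 0.0924 (0.0897 to 0.0950) and Aldh1a1 0.387, 2 of 4 members beside 18.0% of genes. Slc7a10 was at 1.56 and Cyp2e1 at 1.11 (0.990 to 1.24). These iBAT nuclei lay in different clusters, with 96.7% in cluster 26 in cold and 61.4% in cluster 11 and 25.5% in cluster 2 at room temperature. With the macrophage-like level taken off, Cyp2e1 in iBAT became 0.732 and Aldh1a1 0.0969, and with adipocytes defined by their own markers Aldh1a1 became 0.798. In iWAT, Cyp2e1 was 2.90-fold higher (2.81 to 2.98), the 1 of 4 members past the mark, beside 4.44% of genes. Slc7a10 (1.23) and Car3 (1.16) moved little there, and Aldh1a1 had 0.721.

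Within cluster 4 the cold ratios of Slc7a10 and Aldh1a1 were above 1 in all 3 depots. In mPRAT, Slc7a10 went from 274 to 782 CPM (2.85, 2.70 to 3.01) and Aldh1a1 from 107 to 255 CPM (2.37, 2.17 to 2.59). Cyp2e1 was nearly level at 1.04 (1.01 to 1.08) and Car3 at 0.871. In iBAT the cluster had 161 nuclei at room temperature and 87 in cold, with ratios of 2.61 for Slc7a10, 1.96 for Cyp2e1, 1.48 for Aldh1a1 and 1.23 for Car3. In iWAT, Aldh1a1 was 2.93, Cyp2e1 2.04, Slc7a10 1.72 and Car3 0.839. Cluster 5 of iWAT differed for Aldh1a1, at 0.805, and had the higher Cyp2e1 ratio, 3.37 (3.25 to 3.50). The share of iWAT nuclei in cluster 5 was 70.3% at room temperature and 42.0% in cold, and cluster 4 took 27.8% and 48.2%. In mPRAT clusters 4 and 5 together took 49.1% and 34.2%. Cluster 5 alone took 12.3% there at room temperature and 0.559%, or 12 nuclei, in cold. At room temperature cluster 5 of mPRAT held 2983 Aldh1a1 and 3028 Slc7a10 counts, against 950 and 2423 in cluster 4. In iBAT it held 240 and 305 against 85 and 198, and in iWAT 24009 and 14202 against 824 and 2187. The cluster 4 ratios of Aldh1a1 and Slc7a10 therefore leave out most room temperature counts in all 3 depots. They are not read as rises over both clusters.

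**Figure D5:**
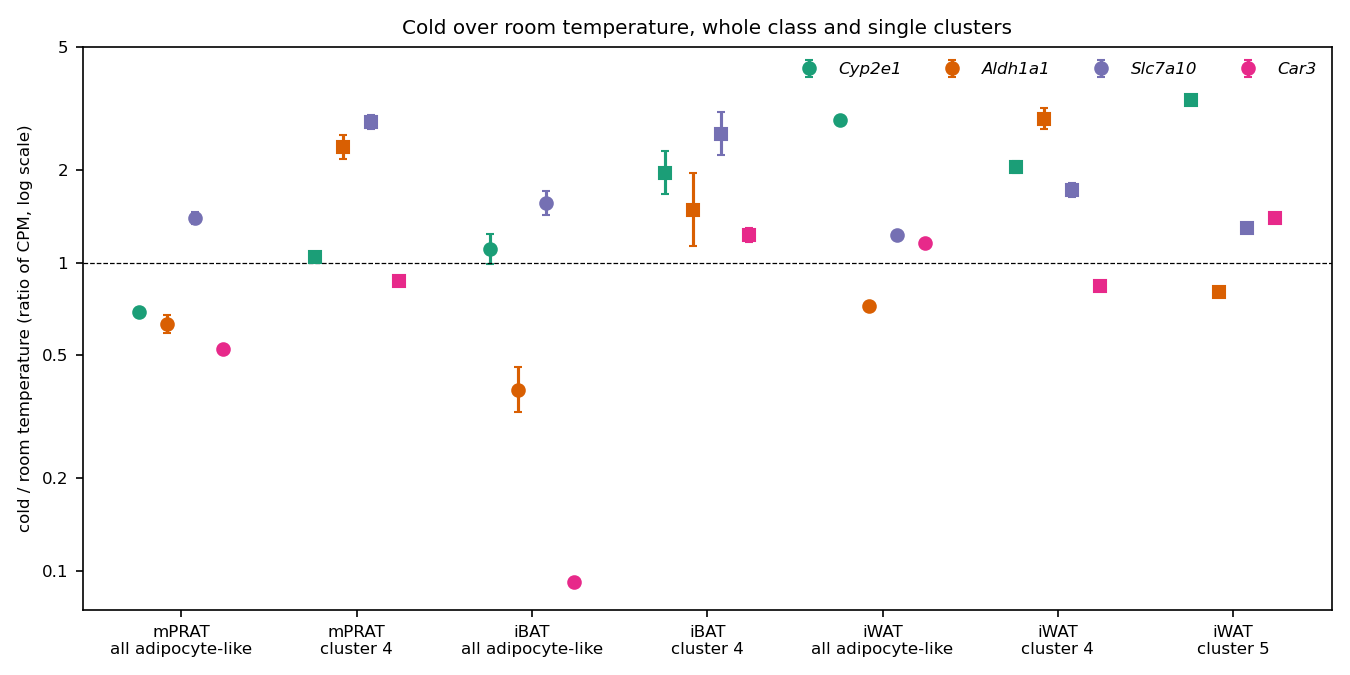
Cold over room temperature at 6 months (ratio of CPM, log scale, 95% intervals) for the 4 genes, over all adipocyte-like nuclei (circles) and inside clusters 4 and 5 (squares). Car3 in whole iBAT lies at 0.0924 and in its cluster 4 at 1.23; Slc7a10 lies above 1 in all 7 columns.

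Among depots at 6 months and room temperature, mPRAT was above iBAT for all 4 members, with ratios of 58.2 (53.1 to 63.9) for Cyp2e1, 18.5 for Aldh1a1, 14.2 for Slc7a10 and 4.47 for Car3. Upward 13.1% of genes passed the mark in that comparison. With the macrophage-like level taken off, Aldh1a1 became 32.2 and Slc7a10 23.9. In cold the same 4 of 4 passed, at 36.4, 30.2, 12.7 and 25.3, beside 13.5% of genes. There Aldh1a1 ran from 12.5 with marker-defined adipocytes to 182 without the macrophage-like level. The 182 has no interval and rests on 3.46 CPM less a macrophage-like 2.97 CPM in cold iBAT. Of 288 macrophage-like nuclei there, 0.694% held Aldh1a1. At 1 month only Cyp2e1 (6.81) and Slc7a10 (3.16) passed, 2 of 4 members beside 11.1% of genes, with Aldh1a1 at 1.67 and Car3 at 1.02 (0.995 to 1.05). Without the macrophage-like level Aldh1a1 was 10.002 and Slc7a10 11.5 there. Inside cluster 4 at 6 months and room temperature the mPRAT to iBAT ratio was 2.83 for Cyp2e1, 0.692 for Aldh1a1, 0.758 for Slc7a10 and 1.33 for Car3.

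At 6 months lPRAT was above mPRAT for Cyp2e1 (2.12), Aldh1a1 (3.20) and Slc7a10 (4.62), 3 of 4 members beside 11% of genes, with Car3 at 1.27. At 2 months Aldh1a1 (5.47) and Slc7a10 (5.31) passed upward, beside 16.3% of genes, Car3 passed downward (0.470), beside 13.7%, and Cyp2e1 was at 1.23. Car3 did not pass with the macrophage-like level taken off (0.529) or in nuclei of 1000 genes or more (0.513). At 6 months iWAT was above mPRAT for Aldh1a1 (4.37) and Slc7a10 (2.02), beside 8.98% of genes, and below it for Cyp2e1 (0.346), beside 14.0%. The macrophage-like level of Slc7a10 was 106 CPM in iWAT and 23.4 CPM in mPRAT, and with these taken off Slc7a10 did not pass. Against iWAT, lPRAT was higher for Cyp2e1 (6.13) and Slc7a10 (2.29), beside 11.5% of genes, and Aldh1a1 had 0.733. These comparisons share libraries, so their ratios are not independent of each other.

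Nuclei with Cyp2e1 were then set against nuclei without it. Among mPRAT nuclei at 6 months, 1161 with Cyp2e1 had 247 CPM of Aldh1a1 and 370 of Slc7a10, and 2177 without had 115 and 155. Both passed the mark and Car3 (1.74) did not, 2 of 3 members beside 3.56% of genes. The count was 2 of 3 at 1 month, beside 2.85%, and at 2 months, beside 4.29%. In cold all 3 passed, with 5.48 for Aldh1a1, 5.39 for Car3 and 4.76 for Slc7a10, beside 8.36%. In lPRAT 0 of 3 passed at 2 months (2.36% of genes) and at 6 months (1.36%), and in iWAT 0 of 3 at room temperature (1.07%) and in cold (0.627%). Aldh1a1 had 0.517 in iWAT at room temperature.

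At 6 months the genes highest in Cyp2e1-positive over Cyp2e1-zero nuclei of mPRAT were Mageb18 (3.60), Cachd1 (2.79), the growth factor gene Igf1 (2.74), the collectin gene Colec12 (3.28), Chst1, Auts2, Chrdl1 and Hdac9. The lowest were A530065N20Rik (0.116), Sorcs2, Sept9 and Nav2. In cold mPRAT the top 8 were Mageb18, Nnat, Car3, Chst1, Aldh1a1, the prostaglandin receptor gene Ptger3 (4.98), Glb1l2 and Slc7a10, and the lowest A530065N20Rik, Gmpr, Nav2 and Ucp1 (0.112). Of 19 thermogenic genes, such as Cidea and Ppargc1a, 18 were lower by 2-fold or more in Cyp2e1-positive mPRAT nuclei at 6 months, beside 5.95% of genes, and 19 in cold, beside 9.58%, with none higher. Their medians were -1.72 and -1.96 on the log2 scale, against -0.03 and -0.01 over all genes. Cyp2e1 was picked partly because it tended to be missing from nuclei with Ucp1 in these data. The thermogenic counts are thus a description and no independent support. Of the white adipocyte list without the members, 5 of 11 were higher, beside 3.56% of genes, and 3 lower at 6 months, with a median of 0.60 on the log2 scale. Of the same thermogenic list, 0 of 15 genes were higher and 1 lower in Cyp2e1-positive nuclei of iWAT at room temperature, beside 3.63% of genes lower. The top genes there were Pex5l, Disp2, Pcdh11x, Ces1d (1.55), Cdo1 (1.54), Fam13a, Acacb and Sema3a, and Sorbs2 (0.276) was lowest, followed by Cacna1e, Dysf and Vgll3.

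The genes around the members in their pathways were counted between depots and in cold. Between mPRAT and iBAT at 6 months, where 13.1% of all genes were higher and 8.68% lower, 8 of 21 amino acid transport and serine genes were higher and 1 lower, with a median of 0.15 on the log2 scale against -0.00 over all genes. They included the serine synthesis enzymes Phgdh (3.62 to 54.4 CPM, 15.03-fold) and Psat1 (11.8-fold), in the depot where the carrier Slc7a10 was also higher. Of 21 retinoid genes 4 were higher and 2 lower (median -0.04), with Rbp4 at 3.16 and Aldh1a7 at 2.96. Of 20 genes on a list named for the P450 system 2 were higher and 4 lower, with Cyp2f2 at 40.3 and Acss1 at 0.298. That list also holds genes that are not P450s, such as the acetate-activating Acss1 and Acss2. Of 13 other carbonic anhydrases 2 were higher and 4 lower, with the mitochondrial Car5b at 5.97. Of 12 other white adipocyte genes 8 were higher and 1 lower, with Retn at 25.6 and Nnat at 12.5, and of 19 thermogenic genes 0 were higher and 11 lower.

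In mPRAT after cold, where 10.7% of all genes were higher and 13.1% lower, 5 of 19 retinoid genes were higher and 2 lower. Dhrs9, a retinol dehydrogenase, went from 14.2 to 109 CPM, and Dhrs3, which reduces retinaldehyde, from 196 to 79.6 CPM. Of 13 other aldehyde dehydrogenases 2 were higher and 1 lower (median 0.40 against -0.02 over all genes), with Aldh4a1 at 2.62. Of 21 amino acid genes 2 were higher and 3 lower, with Phgdh at 0.216. Of 21 genes on the list named for the P450 system 4 were higher and 1 lower, led by the acetate-activating Acss2 at 2.43. Of 12 other white adipocyte genes 7 were lower and 2 higher (median -0.91), with Nnat at 0.132 and Lep at 0.194. In iWAT after cold, where Cyp2e1 was higher, Acss2 was 6.63-fold and Cyp2f2 4.42-fold higher. Of 20 genes on the same P450 list 4 were higher and 3 lower (median 0.03 against -0.07 over all genes). Of 12 white adipocyte genes 0 were higher and 5 lower there. Over all genes 4.44% were higher and 14.4% lower in that comparison. Aldh1a7 lies next to Aldh1a1 at chr19:20692953-20727562 and is a close copy of it, so reads may be split between them.

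Likeness was measured over the 12 libraries as Pearson's r of log2(CPM + 10) among 5334 genes, as a description with no test, since the libraries share depots and differ in depth. Cyp2e1 was most like Bcat2 (0.967), the mitochondrial branched-chain aminotransferase gene, then Chst1, Trf, Mapk6 and Asph. Aldh1a1 was most like Egfr (0.9846), Rbms3, Myo1d, Slc2a13 and Bcl2. Slc7a10 was most like Auts2 (0.977), Chst1, Cachd1, Ccnd2 and Trim14, and Car3 most like the amino acid carrier gene Slc1a5 (0.922), Asah1, Cavin2, Aldh6a1 and Nedd4. Between members r was 0.917 for Aldh1a1 with Slc7a10, 0.895 for Cyp2e1 with Slc7a10, 0.742 for Cyp2e1 with Aldh1a1, and 0.692 to 0.758 for Car3 with the others. Slc7a10 thus followed both other genes more closely than they followed each other.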

How the data were processed

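Nuclei sorted by 7-AAD were sequenced as 10x 3′ v3.1 libraries, and the authors made the deposited UMI counts per gene and barcode with Cell Ranger 7.0.0 and mm10, per the submitters' processing notes. The counts were read as deposited, with 5461133 to 87035783 UMIs per library. Nuclei with at least 500 UMIs, 300 genes and at most 10% mitochondrial UMIs were kept. The highest-scoring barcodes by Scrublet, 0.8% per 1000 nuclei, were removed as doublets, a rate chosen after Scrublet's own threshold marked almost none in several libraries. Clusters (scanpy 1.11.5, 2000 variable genes without the members, Ucp1 and listed genes, 30 components, 15 neighbours, Leiden resolution 1) were named by markers. Counts were summed per library and class and given as CPM with exact Poisson intervals. Ratios of levels have exact conditional binomial intervals, shares Clopper-Pearson intervals and differences of shares Newcombe intervals. Co-detection ratios have the Clopper-Pearson interval of the joint share over a fixed expected number. All intervals are at 95% and for counting error only. With 1 library per group there was no test. A gene was counted as past the mark at a 2-fold ratio, among genes with 20 or more counts over both sides. Named genes were the ones ranked highest and lowest by the difference of log2(CPM + 10), the list genes farthest from 0, and the 5 most alike among genes reaching 50 CPM. The members and the 8 lists were chosen with earlier results of these data known. The alternatives were other limits, scalings (edgeR 4.0.16), adipocyte definitions, thinning depths and subtraction of the macrophage-like level. Scripts were tested on simulated data.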

Additional observations from a re-analysis of the deposited data

Results flagged for a closer look

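Of 28 comparisons of the same contrast between a pair of depots, 14 had ratios on opposite sides of 1 with intervals that left out 1. None of these differences was tested, since each group is 1 library. The same count was not made over all genes, so 14 of 28 is not read as a trait of the members. In cold over room temperature, the mPRAT ratio divided by the iWAT ratio was 0.239 for Cyp2e1 and 0.451 for Car3, and the iBAT ratio divided by the iWAT ratio was 0.0796 for Car3. For 6 over 1 months, the mPRAT ratio divided by the iBAT ratio was 8.53 for Cyp2e1, 11.1 for Aldh1a1, 4.49 for Slc7a10 and 4.37 for Car3. For 6 over 2 months, the same quotient was 11.5 for Aldh1a1, 9.17 for Slc7a10 and 2.48 for Car3. Against lPRAT over the same ages, Cyp2e1 had quotients of 0.581 for mPRAT and 0.0414 for iBAT, and iBAT had 0.148 for Aldh1a1 and 0.1495 for Car3. Both Car3 quotients for 6 over 2 months that involve iBAT rest on its ratio of 0.548, which became 1.06 with the macrophage-like level subtracted, so the sides of 1 were then no longer opposite.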

How the results depend on the processing

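No paired analysis was possible because each group is 1 library. Of 54 alternative values of the 6 main results, 30 stayed within the counting interval of the reported value, 24 moved and 0 reversed. The Cyp2e1 ratio of 6 over 1 months in mPRAT (1.15) became 1.09 in nuclei of 1000 genes or more, 1.05 with adipocytes defined by 3 markers, 1.36 with TMM scaling and 1.43 with the macrophage-like level subtracted. In cold over room temperature, Cyp2e1 in mPRAT (0.692) was 0.657 with no mitochondrial limit, 0.747 by markers, 0.653 with TMM, 0.718 with median-of-ratios scaling, 0.757 as a mean over nuclei and 0.630 after subtraction. In iWAT (2.90) the same settings, without the first, gave 3.04, 3.15, 3.35, 2.43 and 3.32. The difference of Cyp2e1 shares in mPRAT at 6 months (-29.6 points) was -26.0 with doublets kept, -20.6 by markers, -21.3 and -39.2 with thinning to 500 and 2000 UMIs and -42.4 without thinning. In cold mPRAT (-34.7) it was -29.5 by markers, -18.2 and -52.9 with the 2 depths and -62.0 without thinning. Of 585 alternative values of member ratios, 4 reversed. Only ratios whose interval left out 1 could count as reversed. Others that crossed 1 are not among the 4, such as Cyp2e1 in cold over room temperature in iBAT after subtraction. Between 1 and 2 months in iBAT, Aldh1a1 (0.849) became 1.46 by markers and 2.24 after subtraction, and Car3 (1.16) became 0.546 after subtraction. Between 2 and 6 months in iBAT, Car3 (0.548) became 1.06 after subtraction. The cause of these reversals was not tested. Subtracted values have no interval and rest on 39 to 1246 macrophage-like nuclei per library. In iBAT at most 2.56% of those nuclei held Aldh1a1 and at most 2.44% Slc7a10. With no minimum count, 15.1% of genes passed 2-fold upward and 27.5% downward in cold mPRAT, against 10.7% and 13.1%. TMM moved the median of all genes by 0.24 in mPRAT from 1 to 6 months and by -0.32 between mPRAT and iBAT in cold, on the log2 scale. lPRAT at 2 months was the shallowest library, with 1204 adipocyte-like nuclei under the 1000 UMIs of thinning, and several member levels in iBAT lay near those of macrophage-like nuclei.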
